A study of Mus musculus with 24 samples.

Results

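The 39 genes described here encode the enzymes, carriers and helper proteins of fatty acid oxidation in mitochondria and peroxisomes. They were chosen by gene symbol from a pathway list, with earlier results of these data known. Of the 39, 37 were measured by at least 1 probe set that names a single gene, on an array whose probe sets named 18193 genes in all. Acsl1 was not analysed here, and the only probe set for Cpt1b also names Chkb and Gm44502, so that Cpt1b has no value of its own. The 37 genes were read by 66 probe sets. A single probe set stood for 16 genes, 13 genes had 2 and 8 genes had 3.

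RNA came from macrophages grown from the bone marrow of 6 C57Bl/6 mice over 10 days with 20 ng/ml M-CSF. Mice 1, 2 and 3 were Pparg+/- LysCre, with 1 null and 1 intact allele of the nuclear receptor PPARγ. Mice 4, 5 and 6 were Pparg fl/- LysCre, with a null allele and an allele flanked by loxP sites. All 6 mice carried LysCre, in which the lysozyme promoter drives Cre recombinase in myeloid cells. Deletion therefore depends on Cre activity in each cell, and the comparison group is itself heterozygous. Marrow cells of each mouse gave 4 cultures, with or without 20 ng/ml interleukin 4 (IL-4) and with either vehicle (DMSO and ethanol) or 1 µM of RSG, the PPARγ agonist rosiglitazone. This made 8 groups of 3 arrays. Each value is a ratio, the signal of a probe set on an array divided by the median of that array and then, for most probe sets, by its own median over the arrays, and probe sets of a gene were averaged on the log2 scale. A ratio therefore compares arrays for 1 gene, and says nothing of how abundant that gene is beside another gene. A gene was said to rise or fall where limma gave a Benjamini-Hochberg adjusted p below 0.05 over all 18193 genes and a change of at least 1.5-fold.

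To be oxidised in mitochondria, a long-chain fatty acid is first joined to coenzyme A and then passed through the inner membrane by the carnitine shuttle, whose entry enzyme is carnitine palmitoyltransferase 1. Each round of the β-oxidation spiral consists of a dehydrogenation, a hydration, a further dehydrogenation and a thiolysis, and releases acetyl-CoA. Peroxisomes run a parallel spiral on very long and branched chains. PPARγ, like its relative PPARα, binds as a heterodimer with RXR to direct repeats of a hexamer spaced by a single base, and in macrophages its expression is raised by IL-4 through the transcription factor STAT6. Oxidation of fatty acids is a known feature of macrophages activated by IL-4.

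The probe set for Pparg gave ratios of 0.579, 0.51 and 0.558 in untreated cells of mice 1, 2 and 3, and of 0.578, 0.703 and 1.09 in those of mice 4, 5 and 6. With IL-4 and vehicle it read 2.02, 1.71 and 1.46 in Pparg+/- and 1.86, 2.91 and 3.16 in Pparg fl/- cells. After IL-4 and RSG the values were 1.09, 0.91 and 0.895 against 1.93, 2.41 and 2.81. The signal was not lower in the cells labelled Pparg fl/-. Where its probes lie relative to the loxP sites was not analysed here, so these levels do not check the deletion. The authors report near complete recombination by PCR in mice of this genotype. Mice 2 and 4 stood apart from the others for Lyz2, the lysozyme gene whose promoter drives Cre. Its ratios were 18.4 to 21.6 on the 4 arrays of mouse 2 and 16.6 to 21.3 on those of mouse 4, and no higher than 1.15 on any array of the other 4 mice. The part of this difference in the results was not tested.

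To show the start regions of genes on which the results turn, the 250 bases before the annotated start are printed for 3 genes that rose with RSG and for the region that lies between Hadha and Hadhb, which start 272 bases apart and run in opposite directions. The sequences are from RefSeq (GRCm38.p6), at chr19:3323051-3323300 on the plus strand for Cpt1a, chr7:28825088-28825337 on the plus strand for Ech1, chr7:79743132-79743381 on the minus strand for Pex11a and chr5:30155003-30155252 on the plus strand for Hadhb. The window of Cpt1a lies inside the annotated span of that gene, which begins at chr19:3322326. Capitals mark the hexamer AGGTCA, which is read on the opposite strand in the Cpt1a window, and, in the Hadhb window, TTC and GAA with 3 free bases between them.
Cpt1a: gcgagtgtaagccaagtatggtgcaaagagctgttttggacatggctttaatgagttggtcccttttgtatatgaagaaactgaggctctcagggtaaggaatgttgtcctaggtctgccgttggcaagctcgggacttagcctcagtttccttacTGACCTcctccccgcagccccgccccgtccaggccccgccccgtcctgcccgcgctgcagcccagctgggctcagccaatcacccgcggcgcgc
Ech1: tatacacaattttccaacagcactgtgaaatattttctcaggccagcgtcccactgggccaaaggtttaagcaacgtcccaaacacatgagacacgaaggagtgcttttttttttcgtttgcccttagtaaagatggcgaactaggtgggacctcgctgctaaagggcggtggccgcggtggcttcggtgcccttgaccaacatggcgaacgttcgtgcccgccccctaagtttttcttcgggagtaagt
Pex11a: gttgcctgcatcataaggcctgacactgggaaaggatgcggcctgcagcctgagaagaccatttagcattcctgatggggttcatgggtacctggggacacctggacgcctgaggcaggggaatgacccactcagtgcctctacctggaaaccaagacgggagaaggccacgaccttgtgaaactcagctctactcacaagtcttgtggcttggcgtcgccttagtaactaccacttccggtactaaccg
Hadhb: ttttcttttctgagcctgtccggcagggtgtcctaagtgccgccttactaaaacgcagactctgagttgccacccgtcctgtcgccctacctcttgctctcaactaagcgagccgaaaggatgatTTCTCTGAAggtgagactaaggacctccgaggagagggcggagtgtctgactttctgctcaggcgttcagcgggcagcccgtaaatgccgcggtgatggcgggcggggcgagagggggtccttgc
The windows of Ech1 and Pex11a held neither. Of the 37 genes, 32 had a promoter in the table. The direct repeat, AGGTCA followed by 1 free base and AGGTCA again, was in 0 of the 32 windows and in 0.0335% of 32851 windows of all genes, on either strand. A looser form, with AGGNCA in place of AGGTCA, was also in 0 of the 32 and in 0.338% of all. The single hexamer AGGTCA, which is part of those repeats, was in 12.5% of the 32 (Acadm, Echs1, Acadvl and Cpt1a) and in 14.0% of all. The palindrome of TTC and GAA around 3 free bases, read by STAT factors, was in 9.38% (Cpt2, Hadha and Hadhb, the last 2 of which share the region) and in 7.02% of all. The same palindrome around 4 free bases, the spacing taken here for STAT6, was in 0 of the 32 and in 5.85% of all. These matches are descriptions of the letters in the window and not of binding.

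RSG raised 4 of the 37 genes in Pparg+/- macrophages that were also given IL-4, and lowered none. These were Cpt1a, Acaa2, Ech1 and Pex11a, which act at the entry into mitochondria, at the last step of the mitochondrial spiral, in the handling of unsaturated chains and in peroxisomes. Changes of the 4 lay between 1.53-fold and 2.01-fold. Over all genes 71 were called in this comparison, or 0.39%, and 37 of these rose (0.203%). The 71 became 5, 6 and 1 without mice 1, 2 and 3, and 2 when only the 6 arrays compared were fitted.

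Cpt1a, the rate-limiting carnitine palmitoyltransferase of the outer mitochondrial membrane, had ratios of 0.912, 0.715 and 0.786 with IL-4 and vehicle in mice 1, 2 and 3, and of 1.83, 1.58 and 1.44 with IL-4 and RSG. All 3 RSG arrays were above all 3 vehicle arrays. The log2 change was 1.01 (SE 0.19, n = 3 mice, limma adjusted p = 0.02). Its 3 probe sets moved alike, by 0.87 to 1.13, although none was called when tested alone (adjusted p of 0.056 to 0.17).

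Acaa2, the mitochondrial 3-ketoacyl-CoA thiolase on chromosome 18, went from 1.02, 0.825 and 0.853 to 1.9, 1.62 and 1.58 in the same mice. The groups did not overlap. The log2 change was 0.92 (SE 0.13, adjusted p = 0.0035), the smallest adjusted p among the 37 genes, and each of its 3 probe sets was called alone, with changes of 0.80 to 1.04.

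Ech1, a dienoyl-CoA isomerase that serves polyunsaturated chains, read 1.16, 1.04 and 0.972 with vehicle and 1.77, 1.54 and 1.55 with RSG, again without overlap. The log2 change was 0.62 (SE 0.10, adjusted p = 0.0062), only just past 1.5-fold, and it rests on a single probe set. Pex11a, a membrane protein of peroxisomes that promotes their division, gave 1.04, 1.48 and 1.17 with vehicle and 2.11, 2.02 and 2.42 with RSG. Its log2 change was 0.84 (SE 0.17, adjusted p = 0.026). Of its 2 probe sets 1 was called alone (1.04) and the other read 0.64.

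None of the 4 calls held without a mouse, when each group was left with 2 arrays and the adjusted p rose to between 0.073 and 0.44, while the log2 changes stayed between 0.59 and 1.07. None held either when only the 6 arrays compared entered the fit. The change was positive in all 3 mice for each of the 4 genes, at 0.87 to 1.15 for Cpt1a, 0.89 to 0.97 for Acaa2, 0.57 to 0.67 for Ech1 and 0.44 to 1.04 for Pex11a.

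**Figure D1:**
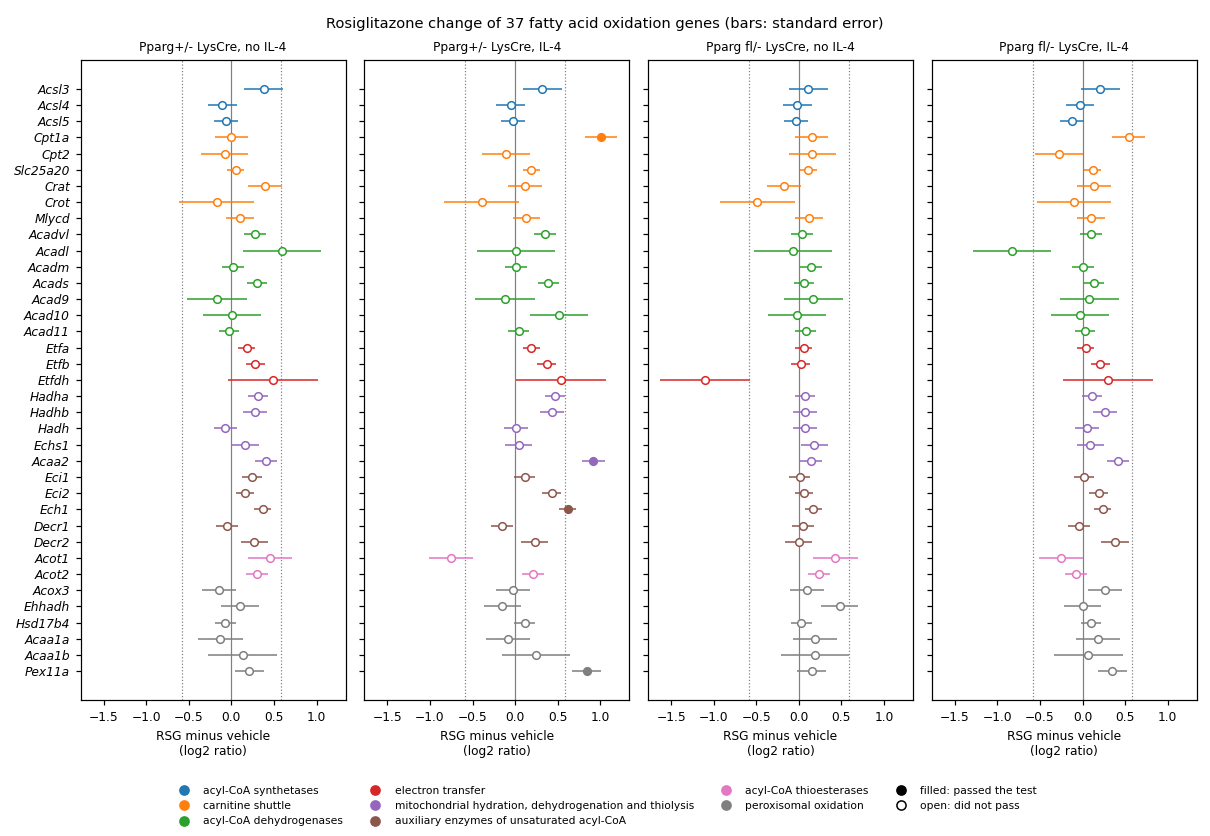
Log2 change with RSG (RSG minus vehicle, horizontal axis) of the 37 genes in 4 settings, with the standard error of the limma fit, coloured by role; dotted lines mark 1.5-fold and filled points passed the test. Filled points appear only for Pparg+/- cells with IL-4, for Cpt1a (1.01), Acaa2 (0.92), Ech1 (0.62) and Pex11a (0.84).

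Other members of the mitochondrial spiral did not pass, with changes from close to no change for Hadh, Echs1 and Acadm to 0.51 for Acad10, and with Acad9 at -0.12. Acadl varied between mice 1, 2 and 3 (0.38, 0.52 and -0.88), so its mean is uninformative. With RSG 1 of its probe sets went from 1.09, 0.924 and 0.982 to 1.24, 1.06 and 1.1. The other went from 1.24, 0.858 and 0.794 to 1.84, 1.54 and 0.209. Hadha and Hadhb encode the α and β subunits of the trifunctional protein, which carries out the later steps on long chains. Hadha read 1.13, 1.02 and 1.22 with IL-4 and vehicle and 1.55, 1.54 and 1.56 with IL-4 and RSG in Pparg+/- cells, a log2 change of 0.47 (SE 0.12, adjusted p = 0.14). Hadhb read 1.32, 1.13 and 1.07 and then 1.73, 1.35 and 1.67, a change of 0.43 (SE 0.14, adjusted p = 0.31). For both, each RSG array was above each vehicle array.

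Acadvl, the very long-chain acyl-CoA dehydrogenase, went from 1.04, 0.805 and 0.984 to 1.24, 1.17 and 1.16, a log2 change of 0.35 (SE 0.13, adjusted p = 0.4) with no overlap of the arrays. Etfa and Etfb, subunits of the flavoprotein that takes electrons from the acyl-CoA dehydrogenases, had changes of 0.19 and 0.37 (adjusted p of 0.73 and 0.22). Slc25a20, the carnitine-acylcarnitine carrier of the inner membrane, read 1.07, 1.13 and 1.04 with vehicle and 1.41, 1.1 and 1.21 with RSG. Its arrays overlapped and the log2 change was 0.19 (SE 0.10, adjusted p = 0.67).

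Ehhadh, the bifunctional enzyme of the peroxisomal spiral, read 1.1, 0.665 and 1.1 with vehicle and 0.956, 0.727 and 0.844 with RSG. The change was -0.15 (SE 0.22, adjusted p = 0.95) and the arrays overlapped. Of the 6 measured genes grouped here under peroxisomal oxidation (Acox3, Ehhadh, Hsd17b4, Acaa1a, Acaa1b and Pex11a), Pex11a alone was called. The median log2 change of the 6 was 0.05. Decr2, Eci2 and Crot were grouped under other roles and are not among the 6, so these values do not cover every peroxisomal member. Acot1, a cytosolic acyl-CoA thioesterase, had the lowest change of the 37 at -0.75 (SE 0.26, adjusted p = 0.37), with overlapping arrays.

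Counted without a test, 14 of the 37 genes (37.8%) had all 3 RSG arrays above all 3 vehicle arrays in Pparg+/- cells with IL-4, and none had them below. The shares among all 18193 genes were 6.24% above and 8.44% below. The 14 were Cpt1a and Mlycd of the carnitine step and its control, Acadvl, Acads and Acad10 of the dehydrogenases, Etfa and Etfb of electron transfer, Hadha, Hadhb and Acaa2 of the later steps, Eci2, Ech1 and Decr2 of the auxiliary enzymes, and Pex11a. None of the 3 acyl-CoA synthetases measured (Acsl3, Acsl4 and Acsl5) was among them. The median log2 change was 0.13 over the 37 genes and -0.02 over all genes. By role it was 0.43 for the 5 genes of hydration, dehydrogenation and thiolysis, 0.37 for the 3 of electron transfer, 0.23 for the 5 auxiliary enzymes and -0.03 for the 3 synthetases.

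Without IL-4 none of the 37 genes was called for RSG in Pparg+/- cells, where 4 genes (0.022%) were called in all. By limma 7 of the 37 had an unadjusted p under 0.05 with no fold limit (5.45% of all genes), all of them higher with RSG. The methods' t-test, which kept the 1.5-fold limit, called 0 with or without adjustment (3.17% of all genes without it). Its 0 is therefore not a count of p alone. Ech1 read 0.8, 0.819 and 0.757 with vehicle and 0.98, 1.09 and 1.01 with RSG, a log2 change of 0.37 (SE 0.10, adjusted p = 0.4). Acaa2 went from 0.969, 0.849 and 0.894 to 1.18, 1.23 and 1.18, a change of 0.41 (SE 0.13, adjusted p = 0.63). Neither gene's groups overlapped.

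Cpt1a did not share this pattern. Its ratios were 1.28, 1.13 and 1.2 with vehicle and 1.42, 1.19 and 1.02 with RSG, which overlapped, and the 95% interval of its log2 change ran from -0.41 to 0.40. Pex11a read 0.926, 0.971 and 0.829 and then 1.01, 1.13 and 1.01, without overlap but with a change of only 0.21 (SE 0.17, adjusted p = 1). Hadha went from 0.765, 0.648 and 0.803 to 0.915, 0.85 and 0.975 (log2 change 0.31, SE 0.12, adjusted p = 0.8), and Hadhb from 1.05, 0.887 and 0.955 to 1.24, 1.04 and 1.24 (0.28, SE 0.14, adjusted p = 0.95).

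In this setting 11 of the 37 genes (29.7%) had every RSG array above every vehicle array, against 6.06% of all genes, and none had them below (6.23% of all genes). The list was Acaa2, Acads, Acadvl, Acot1, Acot2, Ech1, Eci2, Etfa, Etfb, Hadha and Pex11a. It shared 9 genes with the 14 found with IL-4, or 81.8% of the 11 and 64.3% of the 14. The share of all genes with RSG arrays above in both settings was not computed, so no background can be set beside this overlap. The 2 comparisons use different arrays of the same 3 mice. The median log2 change was 0.16 over the 37 genes and -0.01 over all. In Pparg fl/- cells it was 0.07 without IL-4 (0.02 over all genes) and 0.10 with IL-4 (0.00 over all genes). Positive changes numbered 25 and 27 of 37 in Pparg+/- cells without and with IL-4, and 30 and 28 in Pparg fl/- cells.

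The difference between the RSG changes with and without IL-4 was tested directly in Pparg+/- cells, and 0 of the 37 genes passed, as against 1 of all genes (0.0055%). By limma 4 of the 37 had an unadjusted p under 0.05, as had 4.85% of all genes. Cpt1a had the largest difference on the log2 scale among the genes that rose, 1.01 (95% interval 0.44 to 1.58, adjusted p = 0.59). For Pex11a it was 0.63 (0.14 to 1.12, adjusted p = 0.95), for Acaa2 0.51 (0.11 to 0.91, adjusted p = 0.95) and for Ech1 0.24 (-0.06 to 0.54, adjusted p = 1). An adjusted p above the threshold does not show that RSG acted alike with and without IL-4, since the intervals reach past 1.5-fold for 3 of the 4.

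**Figure D2:**
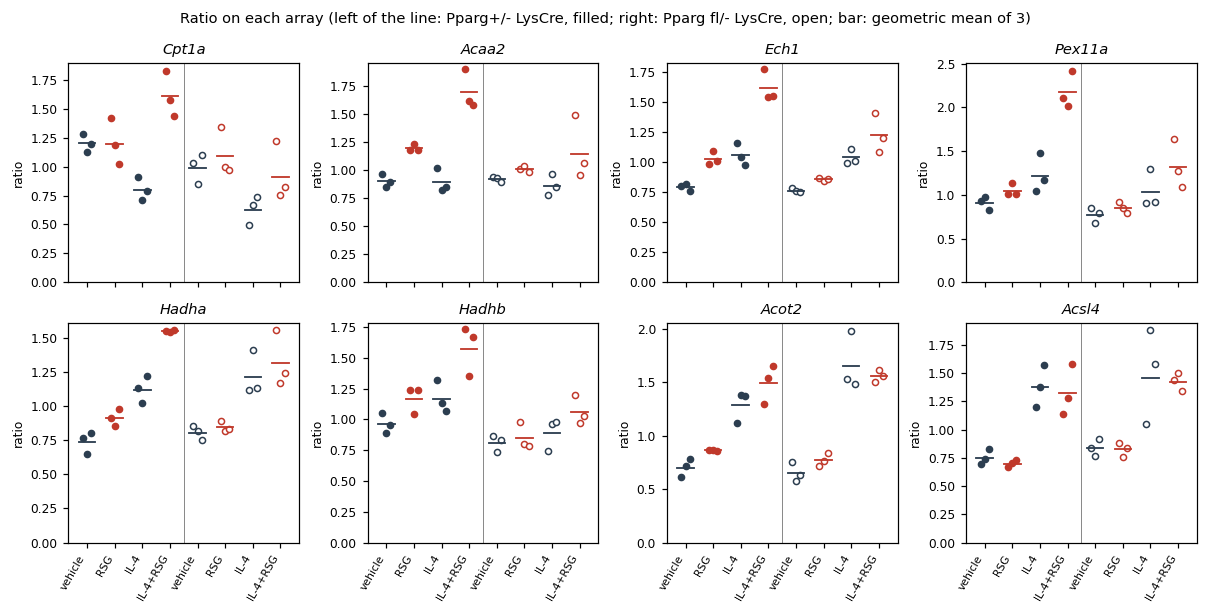
Ratio on each array (vertical axis, starting at 0) of 8 genes in the 8 groups, with vehicle in dark blue, RSG in red, Pparg+/- filled, Pparg fl/- open and the geometric mean of 3 arrays as a bar. In Pparg+/- cells with IL-4 and RSG, Cpt1a lay between 1.44 and 1.83, Acaa2 between 1.58 and 1.9, Ech1 between 1.54 and 1.77 and Pex11a between 2.02 and 2.42, above every array of the other 7 groups.

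In Pparg fl/- cells none of the 37 genes was called for RSG, either without IL-4 (0 of all genes, 0%) or with it (1 of all genes, 0.0055%). Without IL-4 1 of the 37 had an unadjusted p under 0.05 by limma with no fold limit (4.08% of all genes). With IL-4 5 had (4.69% of all genes), and all were higher with RSG. The methods' t-test, which kept the 1.5-fold limit, called 0 in both settings with or without adjustment. Before adjustment it called 2.07% of all genes without IL-4 and 2.47% with it. With IL-4 and vehicle Cpt1a read 0.498, 0.67 and 0.737 in mice 4, 5 and 6, and with IL-4 and RSG 1.22, 0.756 and 0.827. The arrays did not overlap, and the log2 change was 0.54 (SE 0.19, adjusted p = 0.87). Within mice the change was 1.29 in mouse 4 and 0.17 in each of mice 5 and 6.

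Mouse 4, which also differed from mice 5 and 6 in Lyz2 on all its arrays, had the largest change for the next 3 genes too. Acaa2 went from 0.781, 0.962 and 0.846 to 1.49, 0.96 and 1.06 (log2 change 0.42, SE 0.13, adjusted p = 0.81), with 0.93 in mouse 4, 0.33 in mouse 6 and almost none in mouse 5. Ech1 read 0.995, 1.11 and 1.01 and then 1.41, 1.08 and 1.2 (0.24, SE 0.10, adjusted p = 0.99). Pex11a read 0.908, 1.3 and 0.92 and then 1.64, 1.27 and 1.09 (0.35, SE 0.17, adjusted p = 1). All 3 genes overlapped, through the arrays of mouse 5.

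The IL-4 and vehicle array of mouse 4 had a median ratio of 0.925, where those of mice 5 and 6 had 1.08 and 1.03. Without that array still 0 of the 37 genes were called. The part of that array and of the Lyz2 difference in the values of mouse 4 was not tested. Without IL-4 the arrays of Pparg fl/- cells lay closer together, with Acaa2 at 0.939, 0.929 and 0.898 against 1.01, 1.04 and 0.987 and Ech1 at 0.78, 0.756 and 0.746 against 0.869, 0.838 and 0.858. These 2 and Slc25a20 were the 3 genes of 37 (8.11%, against 4.92% of all genes) whose RSG arrays were all higher, and none had them all lower (3.43% of all genes). With IL-4 Cpt1a had them all higher (2.7%, against 3.95% of all genes) and Acadl all lower (2.7%, against 3.52%). For Acadl this came from 1 of its 2 probe sets, which went from 2.07, 1.13 and 1.89 to 0.486, 0.207 and 1.06. The other probe set overlapped, with 0.799, 1.11 and 1.04 and then 1.11, 0.986 and 1.1.

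The same share, taken within mice, was 48.6% of the 37 genes higher with RSG in all 3 Pparg+/- mice without IL-4 and again 48.6% with IL-4, where 15.2% of all genes were in either setting. In Pparg fl/- mice it was 27.0% without IL-4 (14.5% of all genes) and 13.5% with IL-4 (10.3%). Lower in all 3 Pparg+/- mice were 13.5% of the 37 without IL-4 (15.8% of all genes) and 2.7% with IL-4 (18.7%). For Pparg fl/- mice the share lower was 2.7% in either setting (11.1% of all genes without IL-4 and 10.5% with it). The mean log2 ratio of the 37 genes on each array ran from -0.25 to -0.10 with vehicle and from -0.05 to -0.01 with RSG in Pparg+/- cells without IL-4, and from -0.09 to 0.05 and 0.08 to 0.26 with IL-4. Neither pair of ranges overlapped. In Pparg fl/- cells the ranges were -0.18 to -0.07 and -0.11 to -0.03 without IL-4, and -0.12 to 0.18 and 0.11 to 0.16 with IL-4, and both pairs overlapped.

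The difference in RSG change between genotypes was tested in both settings, and 0 of the 37 genes passed (with IL-4, 0% of all genes were called, and without IL-4 0.011%). By limma 2 of the 37 had an unadjusted p under 0.05 with IL-4 (4.58% of all genes) and 1 without (4.48% of all genes). With IL-4 the log2 difference, Pparg+/- minus Pparg fl/-, was 0.50 for Acaa2 (95% interval 0.10 to 0.89, adjusted p = 0.97), 0.48 for Pex11a (-0.01 to 0.98, adjusted p = 1), 0.46 for Cpt1a (-0.11 to 1.03, adjusted p = 1) and 0.38 for Ech1 (0.08 to 0.68, adjusted p = 0.97). For Hadha it was 0.35 (-0.01 to 0.71, adjusted p = 1). The rises in Pparg+/- cells are therefore not shown to differ from the changes in Pparg fl/- cells, nor to be alike.

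Genotypes were also compared directly within each of the 4 treatments. None of the 37 genes was called in any of them, where 0% of all genes were called without IL-4 and with vehicle, 0.011% without IL-4 and with RSG, 0% with IL-4 and vehicle and 0.555% with IL-4 and RSG. By limma the numbers of the 37 with an unadjusted p under 0.05 were, in that order, 2, 4, 2 and 7, where the shares of all genes were 9.16%, 8.94%, 7.96% and 11.1%, and the methods' t-test with adjustment called 0 in each.

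With IL-4 and RSG several genes were near the threshold and higher in Pparg+/- cells. Pex11a had a log2 difference of 0.73 (SE 0.17, adjusted p = 0.051), Cpt1a of 0.81 (SE 0.19, adjusted p = 0.061), Acaa2 of 0.56 (SE 0.13, adjusted p = 0.067), Hadhb of 0.57 (SE 0.14, adjusted p = 0.07) and Ech1 of 0.41 (SE 0.10, adjusted p = 0.075). The median log2 difference over all genes was -0.11 in this comparison. After the array medians were set equal, or after quantile normalization, Acaa2, Cpt1a, Hadhb and Pex11a were called, as they were without mouse 4, and Pex11a was called with the mouse as a random block. These arrays of Pparg+/- cells are also those of the RSG comparison above.

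Hadhb, as the mean of its 3 probe sets, did not overlap between genotypes in any treatment. Its ratios with IL-4 and RSG were 1.73, 1.35 and 1.67 in Pparg+/- and 1.2, 0.971 and 1.03 in Pparg fl/- cells, and in each of the 4 treatments every Pparg+/- array was above every Pparg fl/- array, with log2 differences of 0.24, 0.46, 0.39 and 0.57. No adjusted p passed for Hadhb in the 4 treatments. Taken alone, each of the 3 probe sets overlapped between genotypes with IL-4 and vehicle, and none did with IL-4 and RSG. Hadha overlapped between genotypes in all 4. With IL-4 and RSG, 6 of the 37 genes (16.2%) had all Pparg+/- arrays higher, against 4.57% of all genes, and 4 had them all lower, against 17.6%.

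IL-4 by itself raised 4 of the 37 genes in Pparg+/- cells with vehicle and lowered none, where 14.6% of all genes were called (8.01% higher and 6.57% lower). Among Pparg fl/- cells it raised 3 and lowered 1, where 16.3% of all genes were called (8.59% higher and 7.69% lower). By the adjusted p alone, without the 1.5-fold limit, 9 of the 37 changed in Pparg+/- cells (20.3% of all genes) and 8 in Pparg fl/- cells (22% of all genes). All IL-4 arrays were above all arrays without IL-4 for 11 of the 37 in Pparg+/- cells (29.7%, against 22.1% of all genes) and for 9 in Pparg fl/- cells (24.3%, against 19% of all genes). They were all below for 3 (13.8% of all genes) and 2 (13% of all genes). Acot2, Acsl4 and Hadha were called in both genotypes, Etfa in Pparg+/- only, and Cpt1a, which fell, in Pparg fl/- only. No member passed the test of the difference in IL-4 change between genotypes (0% of all genes were called, and 1 of the 37, against 5.08% of all genes, had an unadjusted p under 0.05 by limma).

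Acot2, a mitochondrial thioesterase that releases fatty acids from coenzyme A, read 0.617, 0.713 and 0.784 without and 1.12, 1.38 and 1.37 with IL-4 in Pparg+/- cells. The Pparg fl/- cells read 0.754, 0.579 and 0.635 and then 1.53, 1.98 and 1.48. The log2 changes were 0.87 (SE 0.13, adjusted p = 9.5e-05) and 1.34 (SE 0.13, adjusted p = 6.3e-07), and its 2 probe sets were called in both genotypes. Acot1, its neighbour on chromosome 12, had arrays that were all lower with IL-4 in both genotypes, with changes of -0.41 and -0.59 that did not pass (adjusted p of 0.33 and 0.12). A probe set that names both genes was not used for either.

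Acsl4, an acyl-CoA synthetase that prefers arachidonic acid, went from 0.696, 0.736 and 0.827 to 1.2, 1.38 and 1.57 in Pparg+/- cells (log2 change 0.87, SE 0.17, adjusted p = 8.6e-04). Pparg fl/- cells went from 0.837, 0.768 and 0.914 to 1.05, 1.88 and 1.58 (0.80, SE 0.17, adjusted p = 0.0016). No arrays overlapped in either genotype. Without mouse 5 the second change was 0.56 and was no longer called.

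Hadha read 0.765, 0.648 and 0.803 without and 1.13, 1.02 and 1.22 with IL-4 in Pparg+/- cells (log2 change 0.61, SE 0.12, adjusted p = 0.001), and 0.85, 0.815 and 0.748 and then 1.12, 1.41 and 1.13 in Pparg fl/- cells (0.59, SE 0.12, adjusted p = 0.0012). Etfa read 0.737, 0.812 and 0.72 and then 1.12, 1.22 and 1.17 in Pparg+/- cells (0.63, SE 0.10, adjusted p = 1.4e-04), and its change in Pparg fl/- cells of 0.54 (adjusted p = 5.4e-04) fell short of 1.5-fold. Both genes lay so near 1.5-fold that they were no longer called once array medians were set equal (0.53 for Etfa, and 0.50 and 0.51 for Hadha in the 2 genotypes). All genes had a median log2 change of 0.09 and 0.13 with IL-4.

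Cpt1a moved the other way. In Pparg fl/- cells it fell from 1.03, 0.854 and 1.1 to 0.498, 0.67 and 0.737 with IL-4 (log2 change -0.66, SE 0.19, adjusted p = 0.018). In Pparg+/- cells it went from 1.28, 1.13 and 1.2 to 0.912, 0.715 and 0.786, a change of -0.58 (SE 0.19, adjusted p = 0.037) that lies just inside the 1.5-fold limit. No arrays overlapped in either genotype. The call in Pparg fl/- cells was lost without mouse 4 (-0.47, adjusted p = 0.069), without mouse 6 (-0.70, adjusted p = 0.064) or without the IL-4 and vehicle array of mouse 4 alone (-0.49, adjusted p = 0.084).

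With RSG added to IL-4, the 3 Cpt1a arrays of Pparg+/- cells (1.44 to 1.83) lay above those of untreated cells (1.13 to 1.28). Slc25a20 had all IL-4 arrays above those without in both genotypes, by log2 changes of 0.39 (adjusted p = 0.0061) and 0.34 (adjusted p = 0.015), under 1.5-fold. Ech1 behaved likewise (0.42, adjusted p = 0.0054, and 0.45, adjusted p = 0.0029), as did Pex11a with a larger error (0.42 in both, adjusted p of 0.082 and 0.079). Acaa2 overlapped in both, with changes of -0.01 and -0.10.

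**Figure D3:**
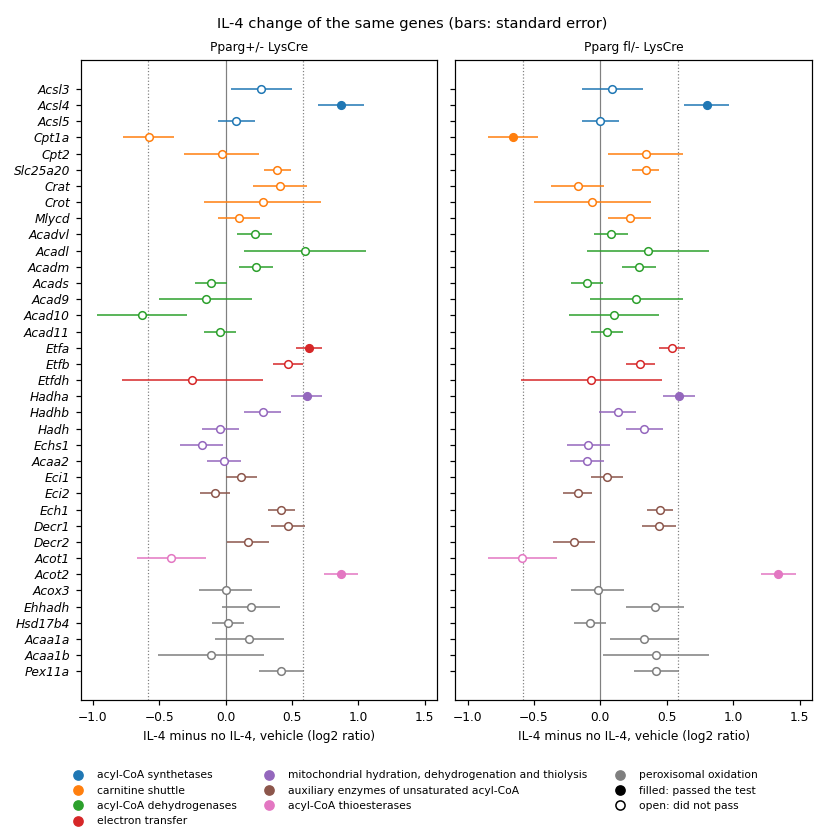
Log2 change with IL-4 in vehicle-treated cells (horizontal axis) of the 37 genes in both genotypes, with the standard error of the limma fit; dotted lines mark 1.5-fold and filled points passed the test. Acot2 (0.87 and 1.34), Acsl4 (0.87 and 0.80) and Hadha (0.61 and 0.59) are filled on the right of both panels, and Cpt1a (-0.66) is filled on the left in Pparg fl/- cells.

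In bulk RNA, fewer cells of a type cannot be told apart from less RNA per cell. With IL-4, 6 of 8 neutrophil markers fell in Pparg+/- and 7 of 8 in Pparg fl/- cells, as did 6 and 9 of 10 stromal cell markers. The mean log2 ratio of the neutrophil markers ran from 1.21 to 1.54 without and -3.37 to -3.00 with IL-4 in Pparg+/- cells, and from 0.52 to 1.31 and -3.60 to -3.00 in Pparg fl/- cells. For the stromal markers it was 0.40 to 0.72 and -2.10 to -0.78, then 0.94 to 2.25 and -2.01 to -1.64. Of 10 macrophage markers 4 fell in the first genotype and 5 in the second, with 1 higher in each, and 2 and 3 of 6 dendritic cell markers rose. Among all genes 6.57% were called lower and 8.01% higher in Pparg+/- cells, and 7.69% and 8.59% in Pparg fl/- cells. The part of these shifts in the IL-4 values of the oxidation genes was not tested.

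For RSG in Pparg+/- cells with IL-4, the mean log2 ratio of each marker list overlapped between RSG and vehicle. Opposite moves of single markers cancel in such a mean. Cd14, a macrophage surface protein, was the single marker called by limma, at -1.22 (adjusted p = 0.0042). With an unadjusted p under 0.05 by limma (7.65% of all genes) there were 4 of 10 macrophage markers, 2 higher and 2 lower. There were also 2 of 8 neutrophil, 1 of 10 stromal and 1 of 6 dendritic cell markers, all lower, and 0 of 4 adipocyte markers. Mean log2 ratios with vehicle and with RSG overlapped for macrophage (-0.57 to 0.07 and -0.59 to 0.12), neutrophil (-3.37 to -3.00 and -3.94 to -3.14), stromal (-2.10 to -0.78 and -1.98 to -1.24), dendritic cell (-0.19 to 0.64 and 0.09 to 0.36) and adipocyte markers (-0.66 to 0.03 and -0.43 to -0.01). The upper ends for macrophage markers were set by Lyz2 in mouse 2, and without Lyz2, an alternative chosen after seeing the data, the ranges were -0.47 to -0.08 and -0.46 to -0.08. In Pparg+/- cells without IL-4, the stromal markers did not overlap, at 0.40 to 0.72 with vehicle and 0.88 to 1.12 with RSG. Each other list overlapped there. At an unadjusted p under 0.05 by limma, 1 of the 10 stromal markers was higher (5.45% of all genes). Untreated Pparg fl/- cells lay higher, at 0.94 to 2.25. By the same limit 5 of the 10 were lower in Pparg+/- (9.16% of all genes). The part of these differences in the oxidation genes was not tested. Because each gene is scaled to its own median, absence of a marker cannot be read from these ratios, the lowest of which is 0.01.

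The 3 neighbouring lists were read in the same fit. Of 35 other genes of mitochondrial oxidation and acyl-CoA handling, 2 rose with RSG in Pparg+/- cells with IL-4, Fabp4 and Slc27a1. Fabp4, a cytosolic fatty acid-binding protein and a known PPARγ target, went from 0.691, 0.535 and 0.547 to 1.52, 1.05 and 1.14 (log2 change 1.06, SE 0.18, adjusted p = 0.0086). Slc27a1, a fatty acid transport protein, had a change of 0.65 (SE 0.11, adjusted p = 0.0074). Of 34 other peroxisomal genes 0 were called by limma, and 1 had an unadjusted p under 0.05 (7.65% of all genes). The medians of the 2 lists were 0.02 and 0.09.

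Of 28 regulators of fatty acid oxidation, Angptl4 rose. Angptl4, a secreted inhibitor of lipoprotein lipase that is a target of several PPARs, read 0.927, 0.471 and 0.664 with IL-4 and vehicle and 6.84, 6.89 and 4.31 with IL-4 and RSG (log2 change 3.15, SE 0.52, adjusted p = 0.0062). It was also the only gene of the array called for RSG in Pparg fl/- cells with IL-4, where it went from 0.198, 0.375 and 0.103 to 3.67, 1.85 and 2.62 (3.73, SE 0.52, adjusted p = 0.019). That call was lost without mouse 4, without mouse 6, without the IL-4 and vehicle array of mouse 4 and with only the arrays compared, when 0 genes were called. Fabp4 in those cells went from 0.441, 0.399 and 0.368 to 0.848, 0.559 and 0.587 without overlap (0.70, SE 0.18, adjusted p = 0.75). By real-time PCR, the authors report a complete loss of Fabp4 induction by RSG in cells of this genotype.

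With IL-4 and RSG, Fabp4 was higher in Pparg+/- than in Pparg fl/- cells by 0.90 (SE 0.18, adjusted p = 0.028). Cpt1c, the neuronal relative of Cpt1a, was lower, by -2.19 (SE 0.45, adjusted p = 0.032), with 0.366, 0.0621 and 0.353 against 0.778, 0.84 and 1.18. The Pparg probe set was lower too (-1.29, SE 0.26, adjusted p = 0.026). No gene of the array was called in this comparison without mouse 5 or with only the arrays compared. With IL-4 and vehicle, 3 of the 28 regulators rose in Pparg+/- cells (8.01% of all genes) and 4 in Pparg fl/- cells (8.59% of all genes). Among them was Ppargc1b, a coactivator of mitochondrial genes, by 1.59 (SE 0.14, adjusted p = 1.1e-07) and 1.84 (SE 0.14, adjusted p = 1.9e-08).

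The precision differed widely among the 37 genes. The standard deviation within groups on the log2 scale had a median of 0.184 over the 37 and 0.412 over all genes, and ran from 0.0969 for Slc25a20 to 0.68 for Etfdh. Etfdh, the dehydrogenase that passes electrons on to ubiquinone, and Acadl, the long-chain acyl-CoA dehydrogenase, were each read by a steady and an unsteady probe set (standard errors of 0.11 and 1.10 for Etfdh, and of 0.12 and 0.89 for Acadl). The standard deviation was also high for Crot (0.573), Acaa1b (0.518), Acad9 (0.445) and Acad10 (0.429). No change in these 6 genes passed in any comparison.

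**Figure D4:**
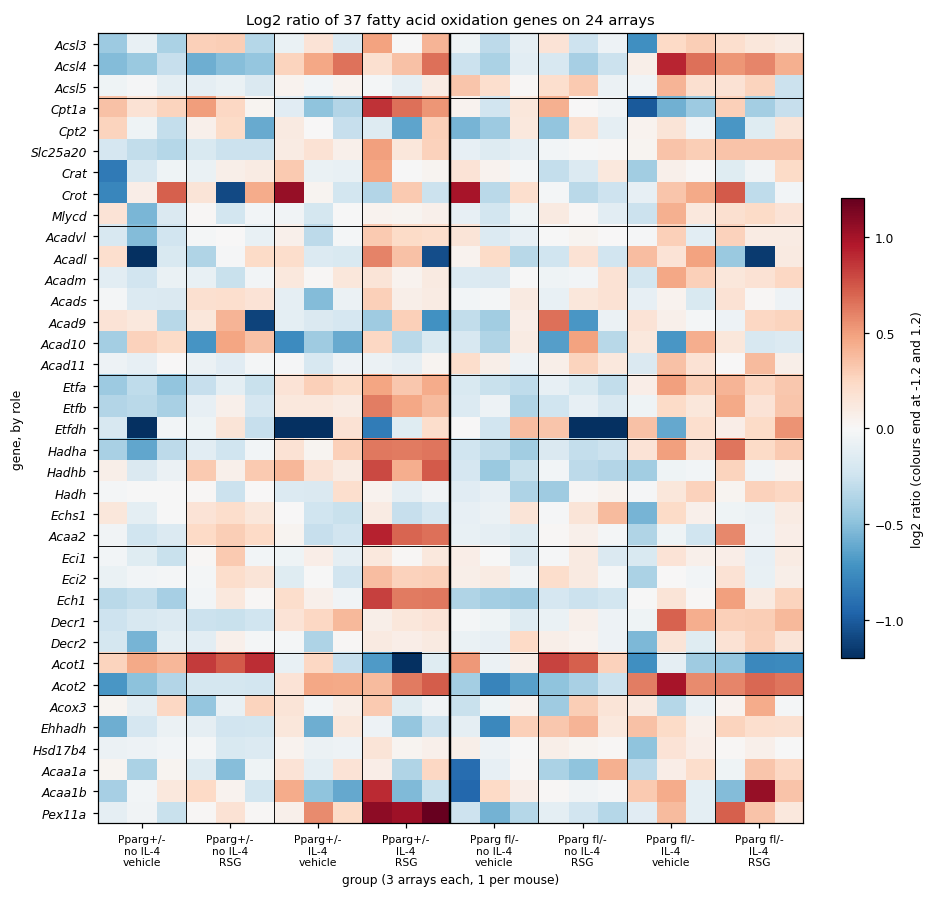
Log2 ratio (colour, ending at -1.2 and 1.2) of the 37 genes (rows, by role) on the 24 arrays (columns, 3 per group in mouse order). The Pparg+/- columns with IL-4 and RSG are red for Cpt1a, Hadha, Hadhb, Acaa2, Ech1 and Pex11a, and Acsl4 and Acot2 are red in all 4 groups with IL-4.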

How the data were processed

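RNA of 24 macrophage cultures was hybridised to Affymetrix mouse arrays. The authors summarised signals by GC-RMA in GeneSpring and scaled them to the array median and next to each probe set's own median. The submitters' processing notes also name GCOS. The deposited values are these ratios, of which the lowest was 0.01. A last division by the vehicle control, named in the methods, is not in them. The median over arrays was within 0.005 of 1 for 82.2% of 45101 probe sets and under 0.95 for 17.1%, whose divisor is not given in the sources used here. Array medians ran from 0.906 to 1.08. Signal over background cannot be read from ratios. Each group mean rests on 3 arrays, while the spread of a gene was estimated over all 24 arrays, with 16 residual degrees of freedom.

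Of the probe sets, 64 were controls, 34945 had 1 gene symbol, 932 had several and 9160 had none in the platform annotation. Symbols were brought up to date by gene identifier (GRCm38.p6) for 34741. Log2 ratios were averaged per gene (18193 genes, no filter) and fitted in R 4.3.3 with limma 3.58.1, with a mean for each of the 8 groups over all arrays, eBayes with a mean-variance trend and Benjamini-Hochberg adjustment. There were 14 comparisons. The fit was tested on simulated data. The members, marker lists and neighbouring lists were chosen with earlier results of these data known, so no test over a list was made. Values on each array are given for called members, for Cpt1a, Hadha, Hadhb, Acadvl, Slc25a20 and Ehhadh, and for up to 4 called genes of each neighbouring list and Pparg. Cpt1c, Ppargc1b, Cd14, Lyz2 and further members were named outside this rule, after their values were seen.

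Each mouse gave 4 arrays, so mouse number pairs arrays within a genotype by origin. Deviations of arrays of the same mouse from their group means correlated at -0.05 to 0.06 (median 0.01, 36 pairs), and the mouse was not in the main fit. Alternatives were other scalings, filters, floors, probe set choices, the mouse as a block, the methods' t-test and the removal of each mouse.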

Additional observations from a re-analysis of the deposited data

How the results depend on the processing

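For the 3 comparisons with called members, their count stayed within 1.5 times its value in 36 combinations of comparison and setting and moved further in 10. For the other 11 it was 0, and it was 0 again in 174 combinations, which says nothing of stability, and above 0 in 8, all for genotype with IL-4 and RSG. No direction was reversed. The 4 genes that rose with RSG in Pparg+/- cells with IL-4 came to 0 with only the groups compared, 0 with the methods' t-test after adjustment (4 before it, where 3.5% of all genes were called) and 0 to 0 without each replicate in turn. These settings use fewer arrays to estimate the spread. The 4 genes called for IL-4 in Pparg+/- cells became 9 with no fold threshold, and 3 to 4 without each replicate. The 4 in Pparg fl/- cells became 1 with only the groups compared, 1 with the methods' t-test after adjustment, 8 with no fold threshold and 2 to 5 without each replicate, 2 without mouse 5. For genotype with IL-4 and RSG the count of 0 became 4 with array medians centred, 4 with quantile normalization, 1 with the filter on ratios, 1 with the probe set of smallest spread, 1 with every probe set alone, 2 with the methods' t-test before adjustment (4.28% of all genes) and 0 to 4 without each replicate, 4 without mouse 4. Over all genes this comparison gave 101 calls, 188 with the probe set of smallest spread, 207 with every probe set alone, 0 with only the groups compared, 0 without mouse 5, 19 to 37 without mouse 1, 2, 3 or 6 and 208 without mouse 4.

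With the replicate block, in which the mouse pairs the arrays, the count for genotype with IL-4 and RSG was 1 (Pex11a), and the block changed no other call of a member. Named members passed again in 120 combinations and lost the call, with the same direction, in 40. The methods' t-test is not defined for differences between changes and was not run there.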
